A study of Homo sapiens with 12 samples.

Results

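T47D is an established human breast carcinoma line that carries the estrogen receptor, and the samples described here are its vehicle cultures, the control group of an RNA-seq experiment on the aromatase inhibitor anastrozole and on estradiol (E2). They were taken by their label, 3 of 12 samples, and are lettered a, b and c. The remaining 9 samples received anastrozole at 10 nM, E2 at 0.1 nM or both agents. All cells were first kept for 48 hours in RPMI 1640 medium with 5% charcoal-stripped serum, which is depleted of steroids, and for a further 24 hours without serum. The sample labels give 12 hours of treatment and the Methods give 24 hours. The Methods state in general that data on gene expression represent 3 independent experiments, but neither they nor the labels say so of these sequenced libraries, so the spread between them may be technical. No contrast was made: the text describes levels within the vehicle group.

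Luminal cells line the ducts of the mammary gland and rest on a layer of basal, contractile cells. Their identity is tied to the transcription factors GATA3 and FOXA1, of which FOXA1 opens chromatin for the estrogen receptor, and to the simple keratins KRT8, KRT18 and KRT19. ESR1 encodes the estrogen receptor alpha, and PGR, the progesterone receptor gene, is one of its classic targets. Aromatase, the product of CYP19A1, makes estrogens from androgens and is the target of anastrozole.

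The reads counted on genes numbered 12383933 in vehicle library a, 13146717 in b and 12839630 in c, which was 32.7%, 32.8% and 33.1% of the reads in the table. A further 59.9%, 59.8% and 59.5% were assigned to no counted feature, which is not the same as lying outside genes. Levels are given as CPM, counts scaled to a common library total with TMM factors, as mean ± SD over the 3 libraries (n = 3). CPM does not allow for the length of a transcript, so it orders genes by their share of the counts, and levels of RNA of different genes were compared as CPM per kilobase (kb) of annotated exon. A gene with at most 3 counts in each vehicle library is counted as at or under the floor. At these depths 3 counts correspond to 0.243 CPM in a, 0.228 CPM in b and 0.233 CPM in c, limits that cover counting error only. Of 25370 genes in the table, 16884 had at least 1 count in each library, 14146 (55.8%) had a mean of 1 CPM or more and 10535 (41.5%) a mean of 10 CPM or more. The 8834 genes at or under the floor made up 34.8% of the table, and 5907 of them had 0 counts in all 3 libraries. All genes here include noncoding and unmatched rows. Of 19021 protein-coding genes, 12742 had 1 CPM or more, 3062 had 0 counts and 1708 had 1 to 3 counts at most. Protein-coding genes were thus more often at 1 CPM and less often at the floor than all genes. A list near the share of all genes at 1 CPM lies under that of protein-coding genes. The median over all genes was 2.90 CPM.

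Counts were spread over many genes. The table holds no symbols of mitochondrially encoded (MT) genes, so shares and ranks are among the other genes. The 10 highest genes took 4.83% of the counts in library a, 4.83% in b and 4.78% in c, and 1171 genes were needed to reach 50% of the summed level and 6508 to reach 90%. The 76 genes of 1000 CPM or more held 15.0% of the counts, the 2276 genes from 100 to 1000 CPM held 50.1%, and the 8183 genes from 10 to 100 CPM held 33.2%. Protein-coding genes held 96.5% of the counts and long noncoding RNA genes 2.37%. The 86 ribosomal protein genes held 5.53% of the counts in a, 5.13% in b and 5.23% in c, so that a was the highest of the 3 for this group.

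**Figure D1:**
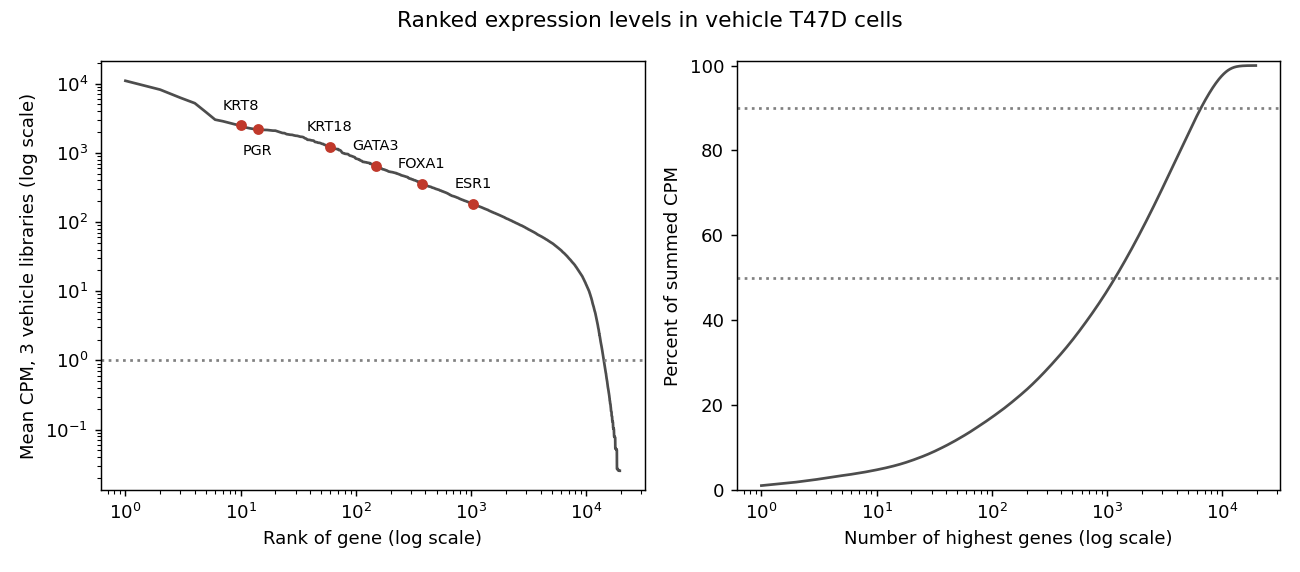
Left, mean CPM of each gene with a count against its rank, both on log scales, with the 6 luminal markers as red points and 1 CPM as a dotted line. Right, percent of the summed CPM held by the highest genes, with dotted lines at 50% and 90%, which are reached at 1171 and 6508 genes.

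The 6 markers that define a luminal estrogen receptor-positive cell were all well above the floor. KRT8, a type II keratin at chr12:53290971-53343738 (GRCh37, as all gene positions below), stood at 2531 CPM in a, 2423 CPM in b and 2492 CPM in c, the tenth highest gene of the table by CPM. KRT18, its type I partner in the same filament, at chr12:53342655-53346690, stood at 1204, 1177 and 1207 CPM. Exons of these neighbouring genes overlap on opposite strands over 7.63% of the exon bases of KRT8 and 17.1% of those of KRT18, and whether the strand was used in counting is not given in the sources used here, so reads in the overlap cannot be assigned with certainty. PGR, at chr11:100900355-101000544, stood at 2039 CPM in a, 2354 CPM in b and 2192 CPM in c, with library b the highest, and ranked 14 by CPM. GATA3, at chr10:8087341-8117161, stood at 669.9, 616 and 655 CPM, with b the lowest. FOXA1, at chr14:38058757-38065264, stood at 347, 353 and 369 CPM. ESR1 itself, at chr6:151977826-152450754, stood at 179.8, 189 and 179 CPM and ranked 1044. All 6 markers of a luminal, receptor-positive cell were therefore present in every library.

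Length changes the order of these markers. Per kb of exon, the union of all annotated exons taken as the length, GATA3 stood at 191 ± 8.22 CPM per kb, PGR at 149 ± 10.7, FOXA1 at 80.7 ± 2.52 and ESR1 at 13.3 ± 0.390. The level of GATA3 per kb was 2.36 ± 0.127 times that of FOXA1, and that of FOXA1 was 6.08 ± 0.301 times that of ESR1, or 3.52 times with the canonical transcript. PGR was 11.2 ± 0.561 times as high per kb as ESR1, or 5.83 times with the canonical transcript as the length, with the annotated exons of ESR1 adding up to far more than that transcript. The order GATA3, PGR, FOXA1, ESR1 held for the union of exons, the longest transcript and the canonical transcript. KRT8 and KRT18 could not be ordered in this way: per kb of exon KRT8 was 0.926 ± 0.0101 times KRT18, but 1.64 times per kb of canonical transcript.

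Among the 20 genes with the highest CPM, MALAT1, a nuclear long noncoding RNA, came first, with 11536 CPM in a, 10744 CPM in b and 10686 CPM in c, although its antisense gene TALAM1 overlaps 77.8% of its exon bases and the strand of the reads is uncertain. EEF1A1, which brings aminoacyl-tRNA to the ribosome, followed with 8239, 8143 and 8178 CPM. AHNAK, a very large scaffold protein, stood at 5995, 6551 and 6179 CPM. PRLR, the prolactin receptor of the mammary epithelium, stood at 4923, 5521 and 5190.3 CPM, so that a lactogenic hormone receptor was among the most counted transcripts of these cells. TFRC, which takes up transferrin-bound iron, stood at 3868 ± 58.2 CPM, and SCD, the desaturase that makes oleate, at 2849.7, 2899 and 2832 CPM. The remaining members were chaperones (HSP90AA1, HSPA8 and HSPA5), actins (ACTB and ACTG1), glycolytic enzymes (ENO1 and LDHA), translation factors and a ribosomal protein (EEF1G, EEF2 and RPLP0), the keratins KRT19 and KRT8, PGR, and IGFBP5, a secreted binding protein for insulin-like growth factors that stood at 2098, 2098 and 2072 CPM.

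Per kb of exon the order was different. PIP, the prolactin-inducible protein secreted by apocrine cells, was first with 3157 CPM per kb in a, 2835 in b and 2871 in c, and was 2.29 ± 0.0516 times as high per kb as KRT19, the next in order. SERPINA6, the plasma carrier of corticosteroids, stood at 910.2 ± 15.8 CPM per kb. The 20 highest per kb of exon thus included these genes of secreted proteins, PIP and SERPINA6, beside housekeeping ones. The place of SERPINA6 depends on the length. Per kb of canonical transcript it stood at 1138 CPM per kb, under genes outside these 20 such as ENO1 (1200) and S100A6 (1145). The others of the 20 highest per kb were MALAT1, TMSB4X, GAPDH, CALR, HSPB1, HSP90AB1, ACTB, the translation factors EEF1G, EEF1A1 and EEF2, and the ribosomal protein genes RPL41, RPS18, RPL7A, RPS12, RPS27, RPL7 and RPLP0. The order depends on the length used: 15 of these 20 were also among the 20 highest with the longest transcript, and 12 of 20 with the canonical transcript, an alternative chosen after seeing the data. PIP exceeded KRT19 under all 3 lengths (1.36 times with the longest and the canonical transcript). KRT19 was not the next in order with the canonical transcript, where RPS18 stood at 2791 CPM per kb, close to PIP at 2954, and KRT19 at 2168. EEF1G shares 99.7% of its exon bases with a read-through gene on the same strand, and ribosomal protein and EEF1A1 reads can map to pseudogenes, so these values are uncertain.

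The promoters of highly counted and of silent genes are shown to let their base composition be compared, in 5′ to 3′ direction from 250 bases before to 50 bases after the gene start. They come from RefSeq (GRCh38.p14) and were chosen after their values were seen, among genes with 1 start in that table that lies within 100 bases of the canonical transcript start. Capitals mark CpG dinucleotides and the letters TATAAA. PIP (chr7:143131827-143132126, plus strand, 1708 ± 102 CPM) and SERPINA6 (chr14:94323287-94323586, minus strand, 1681 ± 29.2 CPM) are high genes with few CpG. FOXA1 (chr14:37595200-37595499, minus strand) and TFRC (chr3:196082041-196082340, minus strand) are high genes with many. KRT5 (chr12:52520345-52520644, minus strand), a basal keratin, and CYP11A1 (chr15:74367597-74367896, minus strand), the enzyme of the initial step of steroid synthesis, are silent genes with few CpG, and KIT (chr4:54657707-54658006, plus strand), the stem cell factor receptor, is a silent gene with many. KRT18 is not in the promoter table.
PIP: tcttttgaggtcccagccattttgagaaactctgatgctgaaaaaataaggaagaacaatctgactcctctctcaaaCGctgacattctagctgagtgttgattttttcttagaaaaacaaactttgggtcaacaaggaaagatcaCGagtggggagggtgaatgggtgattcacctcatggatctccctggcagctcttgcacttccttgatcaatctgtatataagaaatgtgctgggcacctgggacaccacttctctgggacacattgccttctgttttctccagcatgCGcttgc
SERPINA6: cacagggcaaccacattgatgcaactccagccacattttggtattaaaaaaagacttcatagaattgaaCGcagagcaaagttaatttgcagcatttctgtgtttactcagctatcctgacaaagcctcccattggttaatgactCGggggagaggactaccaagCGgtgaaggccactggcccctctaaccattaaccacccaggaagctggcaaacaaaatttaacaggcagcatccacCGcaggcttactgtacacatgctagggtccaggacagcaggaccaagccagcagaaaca
FOXA1: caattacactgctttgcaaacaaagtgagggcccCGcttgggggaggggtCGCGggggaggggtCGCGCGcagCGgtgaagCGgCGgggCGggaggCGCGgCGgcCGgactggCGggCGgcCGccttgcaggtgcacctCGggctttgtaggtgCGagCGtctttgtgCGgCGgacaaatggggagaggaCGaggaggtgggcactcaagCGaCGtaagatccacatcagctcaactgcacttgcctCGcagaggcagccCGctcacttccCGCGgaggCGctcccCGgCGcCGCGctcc
TFRC: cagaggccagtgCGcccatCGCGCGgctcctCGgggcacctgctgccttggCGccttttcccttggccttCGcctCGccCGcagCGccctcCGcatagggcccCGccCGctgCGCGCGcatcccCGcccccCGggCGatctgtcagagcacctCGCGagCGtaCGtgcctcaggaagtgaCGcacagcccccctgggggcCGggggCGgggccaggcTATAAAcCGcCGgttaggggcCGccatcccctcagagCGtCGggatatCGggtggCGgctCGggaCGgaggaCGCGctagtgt
KRT5: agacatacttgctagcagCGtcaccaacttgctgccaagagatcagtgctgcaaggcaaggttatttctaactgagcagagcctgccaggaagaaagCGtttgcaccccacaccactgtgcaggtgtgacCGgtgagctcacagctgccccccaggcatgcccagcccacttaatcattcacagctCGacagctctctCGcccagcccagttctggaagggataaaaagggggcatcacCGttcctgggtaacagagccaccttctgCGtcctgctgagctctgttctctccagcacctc
CYP11A1: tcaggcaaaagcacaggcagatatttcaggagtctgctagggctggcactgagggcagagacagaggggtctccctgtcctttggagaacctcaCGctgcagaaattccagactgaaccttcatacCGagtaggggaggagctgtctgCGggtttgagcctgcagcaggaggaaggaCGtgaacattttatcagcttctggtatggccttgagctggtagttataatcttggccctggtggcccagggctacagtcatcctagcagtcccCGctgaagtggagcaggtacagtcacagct
KIT: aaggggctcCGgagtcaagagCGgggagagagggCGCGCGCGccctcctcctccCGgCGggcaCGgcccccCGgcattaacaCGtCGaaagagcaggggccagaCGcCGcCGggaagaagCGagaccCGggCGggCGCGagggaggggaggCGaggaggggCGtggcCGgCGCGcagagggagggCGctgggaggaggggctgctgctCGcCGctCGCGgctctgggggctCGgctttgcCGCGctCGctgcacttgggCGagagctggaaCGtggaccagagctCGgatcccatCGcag
The promoter of PIP holds 3 CpG and that of SERPINA6 4, while that of FOXA1 holds 34 and that of TFRC 37. TFRC is the one of the 7 with TATAAA on the strand shown, starting 33 bases before the gene start. KRT5 has 7 CpG and CYP11A1 5, and KIT has 38 although it had 0 counts in every vehicle library. The 7 were chosen to show few and many CpG in both high and silent genes, so nothing can be read from them on how common each kind is.

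Over all 11669 genes with 1 start and a count row, promoter composition followed the level per kb. The ratio of observed to expected CpG had a median of 0.262 in the 2290 promoters of genes with 0 counts and 0.342 in the 1158 of genes with 1 to 3 counts at most. The 8101 genes above the floor with an exon length were put into 4 classes of like size by their level per kb (120 more had no length and are in no class), and the median was 0.659, 0.833, 0.875 and 0.881 from the lowest class to the highest. The steps lay between silent genes and the lower classes, and the upper classes were close to each other. TATAAA on either strand was found in 21.9% of the promoters of genes with 0 counts, 5.53% of those of the highest class and 10.4% of all promoters. In the window from 45 to 16 bases before the start, on the strand of the gene, it was found in 8.21% of the promoters of genes with 0 counts, 0.938% of the class below the highest, 2.72% of the highest class and 4.02% of all promoters. Within that class the very highest genes differed: among the 100 genes highest per kb with such a promoter, 14% held TATAAA on either strand and 9% in the window. GGGCGG, the GC box, was found on either strand in 24.9%, 75.1% and 56.7%, in the order 0 counts, highest class, all promoters. CCAAT was found in 37.9%, 39.9% and 37.1%. Motifs of the factor families described below were less frequent in the highest class than in silent genes, in the same order of groups. AGGTCA, core letters bound by many nuclear receptors, was found in 17.3%, 9.19% and 12.2%. The forkhead letters TGTTTAC were found in 4.32%, 1.98% and 2.699%. For the GATA letters AGATAA the shares were 16.2%, 3.56% and 8.28%. In the small set of 27 such promoters of the luminal lists, AGGTCA was found in 14.8%, TGTTTAC in 7.41% and AGATAA in 3.70%. Median GC content of these promoters was 49.7% for genes with 0 counts and 65.7% for the highest class, and its part in the motif shares was not tested. Bases can belong to more than 1 motif, a match describes letters alone, and no binding was measured.

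Luminal genes were present almost throughout. Over the 3 luminal lists, 54 of 58 members (93.1%) had 1 CPM or more, against 55.8% of all genes, and their median was 233 CPM against 2.90 CPM for all genes. Like the other lists here, these were drawn up with earlier results of these data known. Such shares describe the lists and are no independent support for the identity of the cells. Of 18 luminal transcription factors, 17 were at 1 CPM or more, with a median of 218 CPM. TRPS1, a GATA-type repressor, stood at 1701 CPM in a, 1840.2 CPM in b and 1733 CPM in c. XBP1, the factor that expands the secretory pathway, stood at 1469.6, 1475 and 1547 CPM and was the highest luminal factor per kb, with 494 CPM per kb. EHF, an epithelial ETS factor, stood at 1091, 1182 and 1129 CPM. TFAP2B, named after its value was seen, was the exception at 0.578 ± 0.272 CPM.

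The 20 genes of luminal epithelial structure were all at 10 CPM or more, against 41.5% of all genes, with a median of 387 CPM. KRT19, highest of the list by CPM and per kb, stood at 3151 CPM in a, 2891 CPM in b and 2998 CPM in c. DSP, which anchors keratin at desmosomes, stood at 1167 ± 41.5 CPM, the adhesion gene CDH1 at 918 ± 25.4 CPM, and JUP, a catenin shared by both kinds of junction and named after its values were seen, at 820.7 ± 20.7 CPM. The structural genes of the epithelium were thus high in each library.

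Secretory and estrogen-linked genes were uneven. Of 20, 17 (85%) were at 1 CPM or more, against 55.8% of all genes. The median was 146 CPM, and PRLR held 47.2% of their summed CPM. Per kb of exon, PIP was the highest, at 2954 CPM per kb against 401 for PRLR. In CPM, PIP stood at 1825 CPM in a, 1639 CPM in b and 1659.7 CPM in c. The lysosomal protease CTSD, overlapped over 22.9% of its exon bases by another gene model on the same strand, stood at 811 ± 26.8 CPM, GREB1, an estrogen receptor cofactor, at 522 ± 12.0 CPM and IGFBP4 at 518 ± 11.3 CPM. The trefoil genes went apart: TFF3 stood at 145.6, 124 and 133 CPM, but TFF1, a classic estrogen target, at 1.65 ± 0.444 CPM, both singled out after their values were seen. Per kb, TFF3 was 44.9 ± 8.79 times TFF1. The secretoglobin genes SCGB2A2 and SCGB1D2 had 0 counts and MUCL1 0, 2 and 0 counts.

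**Figure D2:**
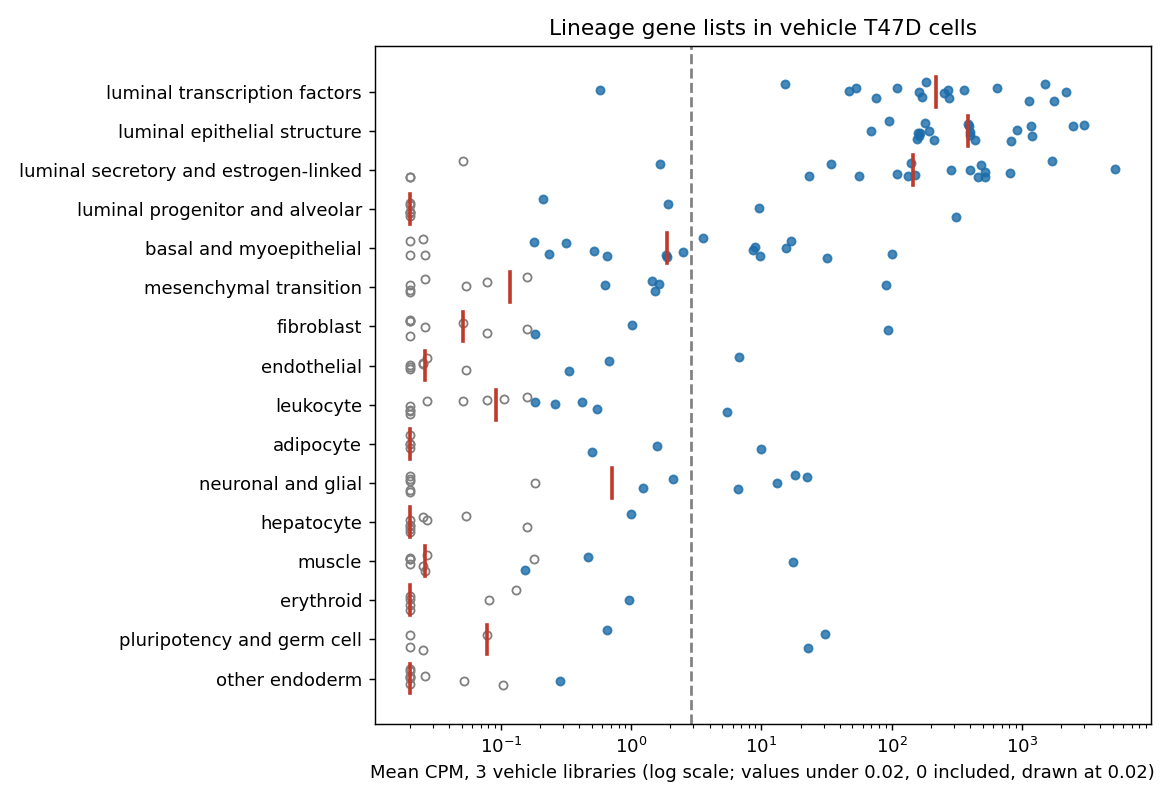
Mean CPM of each member (points, log scale) of 16 lineage lists, with open points for members at or under the floor, a red bar at each list's median, a dashed line at the median of all genes (2.90 CPM), values under 0.02 CPM drawn at 0.02 and no meaning to height within a list. The luminal lists lie at the right, with medians of 218, 387 and 146 CPM, and the other-lineage lists lie mostly at the left edge.

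Nuclear receptors are transcription factors that bind steroids, retinoids, thyroid hormone or lipids. Of 48, 33 (68.8%) were at 1 CPM or more, against 55.8% of all genes, and 10 were at or under the floor. Their share at 1 CPM was close to that of protein-coding genes (12742 of 19021). The median was 18.7 CPM. PGR made up 56.3% of their summed CPM and was also the highest per kb. RXRA, the shared partner of many receptors, stood at 187 ± 1.13 CPM, and NR2C2 at 104 ± 4.78 CPM, with 60.5% of its exon bases overlapped by MRPS25 on the other strand. RARA, a retinoic acid receptor named after its values were seen, stood at 93.1 ± 3.99 CPM. ESR2, the gene of estrogen receptor beta, had 18, 33 and 19 counts, or 1.46, 2.51 and 1.48 CPM, above the floor, and it ranked 33 of the 48 per kb of exon, where ESR1 ranked 8. Per kb of canonical transcript ESR2 again ranked 33, and ESR1 ranked 3. NR3C1, the glucocorticoid receptor gene, named after its values were seen, stood at 20.5, 25.1 and 21.8 CPM. Among those at or under the floor were RORB, NR1H4, NR1I2, HNF4A and RXRG.

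**Figure D3:**
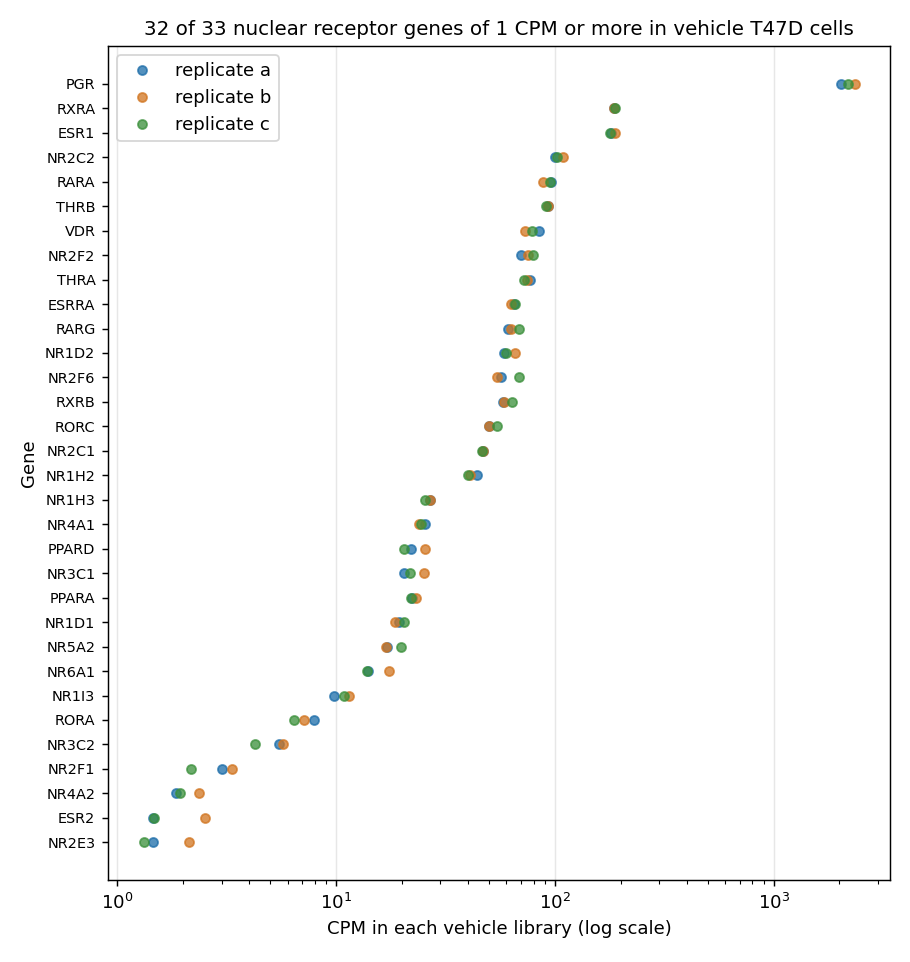
CPM in vehicle library a, b and c (points, log scale) for 32 of the 33 nuclear receptor genes of 1 CPM or more, ordered by mean. PGR lies at 2195 ± 157 CPM and ESR2 at 1.81 ± 0.603 CPM, on an axis that does not allow for length.

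Of 58 receptor tyrosine kinases, 36 (62.1%) were at 1 CPM or more, against 55.8% of all genes, and 15 were at or under the floor, with a median of 5.32 CPM. Their share at 1 CPM was under that of protein-coding genes (12742 of 19021). DDR1, a collagen receptor, stood at 475 CPM in a, 461 CPM in b and 481 CPM in c. ERBB3, a receptor of neuregulins with little kinase activity of its own, stood at 429, 443 and 436 CPM. ERBB2, its signalling partner, stood at 320.3, 314 and 341 CPM. Per kb, ERBB3 was 1.18 ± 0.0572 times ERBB2, or 1.09 times with the canonical transcript. IGF1R stood at 232 ± 5.16 CPM and PTK7, which lacks kinase activity, at 128 ± 1.88 CPM. EGFR stood at 9.71, 8.67 and 10.6 CPM, and ERBB2 was 52.1 times as high per kb of exon and 73.4 times per kb of canonical transcript. In list order, PDGFRA, PDGFRB, KIT, FLT3 and KDR were the leading members at or under the floor, with PDGFRA, KIT, FLT3 and KDR at 0 counts. These 5 are best known from stromal, blood, mast and endothelial cells.

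Steroid synthesis from cholesterol was nearly silent. Of 13 genes, 4 were at 1 CPM or more and 7 (53.8%) were at or under the floor, against 34.8% of all genes. Those present were electron carriers that also serve other enzymes: POR at 97.8, 87.6 and 92.6 CPM, CYB5A at 58.1 ± 1.82 CPM, FDXR at 52.4 ± 4.48 CPM and FDX1 at 17.6 ± 0.412 CPM. The genes of the synthetic enzymes themselves had no or few counts. CYP19A1, the aromatase gene, had 0 counts in all 3 libraries, so its level was under 0.243, 0.228 and 0.233 CPM, and its highest count in the other 9 libraries was 2. The paper describes a knockout of endogenous CYP19A1 in T47D cells, followed by Western blot. Protein is another measure than these counts, which do not show that the line lacks aromatase. CYP11A1, CYP11B1, CYP11B2, HSD3B1 and HSD3B2 also had 0 counts, and CYP21A2 had 0, 2 and 2. CYP17A1, which makes androgen precursors, averaged 0.388 ± 0.230 CPM, with 41.9% of its exon bases overlapped by WBP1L on the other strand.

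Of 23 enzymes that interconvert steroids, 14 (60.9%) were at 1 CPM or more and 6 (26.1%) at or under the floor, near the shares of all genes (55.8% and 34.8%). HSD17B4, which inactivates estradiol and also serves peroxisomal fat oxidation, stood at 188, 187 and 183 CPM. HSD17B12 stood at 109 ± 4.82 CPM, HSD17B10 at 69.2 ± 2.71 CPM and HSD17B8 at 38.2 ± 1.51 CPM. HSD17B1, which reduces estrone to estradiol, stood at 42.9, 36.4 and 44.6 CPM, but 80.9% of its exon bases are overlapped by an antisense gene, so the strand of these reads is uncertain. Its order against HSD17B4 per kb was not stable, at 2.84 ± 0.313 times with the union of exons and 0.459 times with the canonical transcript. HSD17B3 (sharing 66.4% of its exon bases with another gene model on the same strand), HSD17B11, HSD11B1, SRD5A2 and AKR1C4 were among the 6 at or under the floor.

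Among 15 enzymes of conjugation and hydroxylation, 4 (26.7%) were at 1 CPM or more, against 55.8% of all genes, and 9 (60%) were at or under the floor, against 34.8%. CYP1B1, which hydroxylates estradiol, stood at 78.6, 83.3 and 82.6 CPM (an antisense gene overlaps 11.2% of its exon bases), SULT1A1 at 29.6 ± 0.383 CPM and SULT2B1 at 10.8 ± 0.578 CPM. CYP1A1 averaged 0.711 ± 0.368 CPM. The estrogen sulfotransferase SULT1E1, SULT2A1, UGT2B7 and UGT2B17 had 0 counts, and UGT2B15 had 1, 3 and 3. The UGT2B genes are close paralogs, so reads shared between them may have been left out of the counts. The estradiol hydroxylase gene CYP1B1 was thus present, while SULT1E1 and the UGT2B genes named were not detected above the floor at this depth.

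Of 20 basal and myoepithelial genes, 11 were at 1 CPM or more, near the share of all genes (55.8%). At or under the floor were 4 (20%), a lower share than the 34.8% of all genes. The median was 1.87 CPM against 2.90 CPM for all genes. Defining genes, named after their values were seen, were low: KRT5 had 0, 0 and 1 counts, KRT14 had 4, 2 and 6, and KRT17 had 7, 9 and 4. TP63, the master factor of basal cells, had 20, 23 and 30 counts (1.90 ± 0.378 CPM). CDH3, the cadherin of placenta and basal epithelium, stood at 104, 94.7 and 102 CPM, 49.2% of the summed CPM, and was also the highest per kb. KRT15 stood at 32.1 ± 1.33 CPM. TAGLN, an actin-binding protein of smooth muscle, stood at 15.4 ± 0.595 CPM, but PCSK7 overlaps 34.1% of its exon bases on the other strand and another gene model 38.1% on the same strand. MYH11, smooth muscle myosin, stood at 16.4, 16.7 and 17.9 CPM, with some of its exon bases overlapped by NDE1 on the other strand.

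In the luminal progenitor and alveolar list, ELF5, the factor of alveolar differentiation, stood at 319 CPM in a, 313 CPM in b and 302 CPM in c, 96.3% of the summed CPM, and was also the highest per kb. Of the 10 members 3 (30%) were at 1 CPM or more, the others being ALDH1A3, a retinaldehyde dehydrogenase, at 9.66 CPM, with 32.1% of its exon bases overlapped by an antisense gene, and SLPI, a secreted protease inhibitor, at 1.93 CPM. The milk protein genes CSN1S1, CSN2, CSN3 and LALBA had 0 counts, as did KIT, and 6 members (60%) were at or under the floor, against 34.8% of all genes. Of 12 genes of the mesenchymal transition, 4 (33.3%) were at 1 CPM or more and 7 (58.3%) at or under the floor, against 55.8% and 34.8% of all genes. FN1, fibronectin, stood at 85.6, 94.3 and 91.7 CPM, but VIM, the mesenchymal intermediate filament, at 1.13, 2.21 and 1.55 CPM. Of the transcription factors of this transition, TWIST1 averaged 1.52 CPM and SNAI1 1.45 CPM, and ZEB1 had 0, 0 and 1 counts.

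Genes of other lineages were mostly silent. Of 99 members of 10 lists, 70 (70.7%) were at or under the floor, against 34.8% of all genes, and 41 had 0 counts. The median was 0.02699 CPM against 2.90 CPM for all genes. By list, the members at or under the floor were 8 of 11 fibroblast, 7 of 10 endothelial, 9 of 14 leukocyte, 4 of 7 adipocyte, 6 of 12 neuronal and glial, 9 of 10 hepatocyte, 8 of 11 muscle, 6 of 7 erythroid, 4 of 7 pluripotency and germ cell, and 9 of 10 other endoderm genes. Of the 70, 59 were at or under the floor in each of the other 9 libraries too, a stricter condition since it covers more libraries. Of the 8834 genes of the whole table at or under the floor, 7909 met that condition. In cell line RNA, fewer cells of a type and less RNA per cell cannot be told apart. Of defining genes, named after their values were seen, COL1A2, PDGFRA, FABP4, LPL, ALB, HBB, MYOD1, INS and CDX2 had 0 counts. PTPRC, the pan-leukocyte gene, had 0, 0 and 3 counts and PECAM1, an endothelial adhesion gene, 0, 1 and 0. The summed level of all 99 genes was 261, 260.5 and 265 CPM in a, b and c.

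Of the 99 members, 15 (15.2%) were at 1 CPM or more, against 55.8% of all genes. The neuronal and glial list of 12 held 6 of them (50% of that list, near the share of all genes). COL1A1, a chain of type I collagen, stood at 95.7, 91.6 and 94.7 CPM, 98.4% of the summed CPM of the fibroblast list, while COL1A2, which encodes the partner chain, had 0 counts. LIN28A, an RNA-binding protein of stem cells, stood at 31.6, 28.7 and 32.3 CPM and SOX2, a pluripotency factor, at 21.0, 24.0 and 23.8 CPM, while POU5F1 averaged 0.649 ± 0.149 CPM and NANOG had 1, 2 and 0 counts, under the floor. In the neuronal list SYT1, a calcium sensor of vesicle release, stood at 22.5 ± 0.949 CPM, TUBB3 at 18.0 ± 2.16 CPM and MAP2 at 13.2 ± 1.02 CPM. TNNI3, cardiac troponin I, stood at 17.4 ± 0.610 CPM, and CFD at 9.88 ± 0.606 CPM. Both have overlapping neighbours, TNNI3 a read-through gene over 24.4% of its exon bases on the same strand and CFD the gene MED16 on the other, and TUBB3 has a read-through gene over 21.3%. ESAM, an endothelial adhesion gene, stood at 6.72 ± 0.863 CPM. Hepatocyte, erythroid and other endoderm genes had no member at 1 CPM. Among erythroid genes, the factor GATA1 was highest by CPM, at 0.969 ± 0.312 CPM. What gives these isolated counts was not tested.

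Of 6 GATA factors 5 (83.3%) were at 1 CPM or more, against 55.8% of all genes. GATA3 held 94.2% of their summed CPM and was 43.3 ± 3.65 times as high per kb as GATA2, which stood at 21.7 ± 1.77 CPM, or 32.8 times with the canonical transcript. FOXA1 stood alone among the FOXA factors, with 0 counts for FOXA2 and 1, 1 and 1 for FOXA3. TFAP2C stood at 172, 169.6 and 169 CPM and TFAP2A at 108, 115 and 107 CPM. Per kb, TFAP2C was 4.24 ± 0.165 times TFAP2A with the union of exons, 2.07 times with the longest transcript and 1.699 times with the canonical transcript.

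Of 39 HOX genes, which set position along the body axis, 19 (48.7%) were at 1 CPM or more and 13 (33.3%) at or under the floor, near the shares of all genes (55.8% and 34.8%). The clusters were unlike: HOXC had 8 of 9 members at 1 CPM or more, followed by HOXB with 7 of 10, HOXA with 4 of 11 and HOXD with 0 of 9. HOXC10 stood at 112 CPM in a, 109 CPM in b and 107 CPM in c, 54.8% of the summed CPM of HOXC, and was the highest HOX gene per kb. HOXB2 stood at 52.4 ± 1.41 CPM, HOXB3 at 39.0 ± 2.35 CPM, HOXC11 at 29.8 ± 1.91 CPM and HOXC13 at 13.2 ± 2.09 CPM. The summed level was 199 ± 5.54 CPM for HOXC, 107 ± 3.07 for HOXB, 6.37 ± 0.793 for HOXA and 1.12 ± 0.292 for HOXD. These sums are in CPM and do not allow for length. Neighbouring HOX genes share exon bases, HOXB3 and HOXB6 among them, which makes single values in a cluster uncertain.

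**Figure D4:**
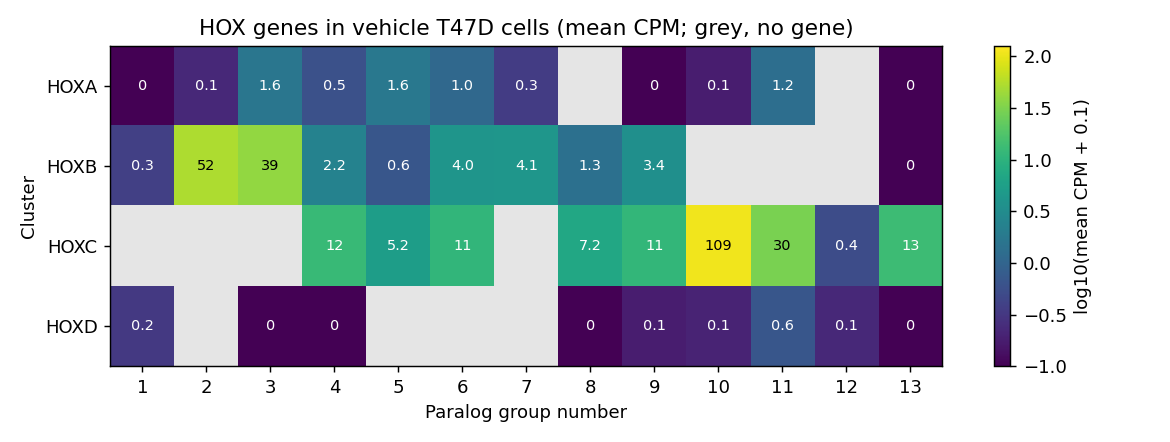
Mean CPM over the 3 vehicle libraries of each HOX gene, by cluster (rows) and paralog group (columns), coloured as log10(CPM + 0.1), with the mean CPM written in each cell and 0 for values under 0.05. HOXC10 and HOXB2 lead, and the HOXD row is at or near 0.

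Of 54 keratin genes, 11 (20.4%) were at 1 CPM or more, against 55.8% of all genes, and 32 (59.3%) at or under the floor, against 34.8%. Beside KRT19, KRT8 and KRT18, KRT7 stood at 159 ± 8.48 CPM and KRT80 at 142 ± 7.67 CPM. Per kb, KRT19 was 3.57 ± 0.0811 times KRT8, or 1.56 times with the canonical transcript. On chromosome 12, KRT80 and KRT7 lie at the start of the cluster of 27 keratin genes and KRT8 and KRT18 at its end, and KRT78, the gene before KRT8, averaged 0.0793 CPM (this gene and KRT9 were named after their values were seen). On chromosome 17, KRT19 lies between KRT15 at 32.1 ± 1.33 CPM and KRT9, with 0 counts. Of 23 claudins, the sealing proteins of tight junctions, 10 (43.5%) were at 1 CPM or more, against 55.8% of all genes. CLDN4 stood at 409, 362 and 383 CPM and CLDN3 at 175, 168 and 196 CPM, and their order per kb was not stable (CLDN4 at 0.583 ± 0.0516 times CLDN3 with the union of exons and 1.62 times with the canonical transcript). CLDN7 stood at 95.3 ± 5.34 CPM, CLDN1 at 76.1 ± 1.83 CPM and CLDN12 at 66.9 ± 2.95 CPM.

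After the serum-free day, all 20 proliferation genes were at 10 CPM or more, against 41.5% of all genes. TOP2A, which untangles replicated DNA, stood at 878, 925 and 870.0 CPM, MCM4 at 323 ± 3.87 CPM, CDK1 at 307 ± 7.86 CPM and MKI67, a marker of cycling cells, at 247, 266 and 252 CPM. Their median was 110.4 CPM. Of 17 cell cycle regulators 16 (94.1%) were at 1 CPM or more, against 55.8% of all genes. MDM2 stood at 205 ± 5.76 CPM, CCND1, cyclin D1, at 161 ± 2.74 CPM and CDK4 at 152 ± 3.75 CPM. TSPAN31, on the other strand, overlaps 44.25% of the exon bases of CDK4. CCND2, named after its value was seen, had 0 counts. The share of cycling cells cannot be read from these levels.

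Glycolytic genes were high, with 17 of 18 (94.4%) at 1 CPM or more, against 55.8% of all genes. Their median was 341 CPM, against 2.90 CPM for all genes. ENO1 stood at 2196, 2071 and 2143 CPM, LDHA at 2124, 2086 and 2068 CPM and GAPDH at 2034 ± 41.0 CPM. The exception, LDHB, which encodes the other lactate dehydrogenase subunit and was singled out after its value was seen, had 9, 9 and 10 counts, or 0.729, 0.685 and 0.777 CPM, with 33.4% of its exon bases shared with another gene model on the same strand. Its highest count in the other 9 libraries was 12. Per kb, LDHA was 1423 ± 96.2 times LDHB with the union of exons and 1671 times with the canonical transcript. All 6 translation elongation genes were at 100 CPM or more, against 9.27% of all genes. EEF1A1 and EEF1G stood at 814 and 883 CPM per kb of exon, but at 2331 and 1611 CPM per kb of canonical transcript, so their order was not stable.

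The 3 libraries were close to each other. Over the 10535 genes of 10 CPM or more, the median CV was 4.41%, where Poisson counting alone would give a median of 3.41% for an SD of 3 values, and 73.3%, 79.0% and 78.6% of these genes lay within 1.1-fold for the pairs a and b, a and c, and b and c. None of these 10535 genes differed by more than 2-fold in any pair. Chi-square per degree of freedom, taken over the 15494, 15455 and 15493 genes with 10 counts or more in the pair and near 1 where only sampling noise is present, was 2.44 for a and b, 1.76 for a and c and 1.72 for b and c, so that each pair differed by more than sampling noise and a and b differed most. The common biological coefficient of variation of edgeR was 3.31%, and 4.08% without c, 2.84% without a and 2.80% without b.

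The spread above counting noise was easiest to see in the highest genes, where counting noise is small: a spread in proportion to the level gives a variance ratio that grows with the counts. The mean ratio of the variance to the Poisson variance was 1.28 for genes from 1 to 10 CPM, 1.65 from 10 to 100 CPM, 3.81 from 100 to 1000 CPM and 30.1 for the 76 genes of 1000 CPM or more. Among these 76, the lowest CVs were those of HSPA5 (0.354%), EEF1G (0.404%) and PGK1 (0.551%). They lie under the counting CVs of these genes (0.604%, 0.579% and 0.662%), so their order says nothing of the genes. PGR had a CV of 7.16% and PRLR one of 5.74%, both highest in library b. Deviations of a library from the mean of the 3 were related to base composition and to transcript length. Across 12364 genes of 3 CPM or more, which are not independent replicates, Spearman's rho of a library's deviation with GC content was 0.223 for a, -0.376 for b and 0.169 for c. With the length of the longest transcript, from which GC content was also taken, it was -0.233 for a, 0.258 for b and -0.0257 for c. In b, the genes of lowest GC content (under 40.4%) had a median log2 deviation of 0.04 and those of highest GC content (above 58.1%) one of -0.04. PGR and PRLR have long exon unions (14692 and 13003 bases), a measure other than the length used for the trend. The part of these trends in their deviations was not tested.

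**Figure D5:**
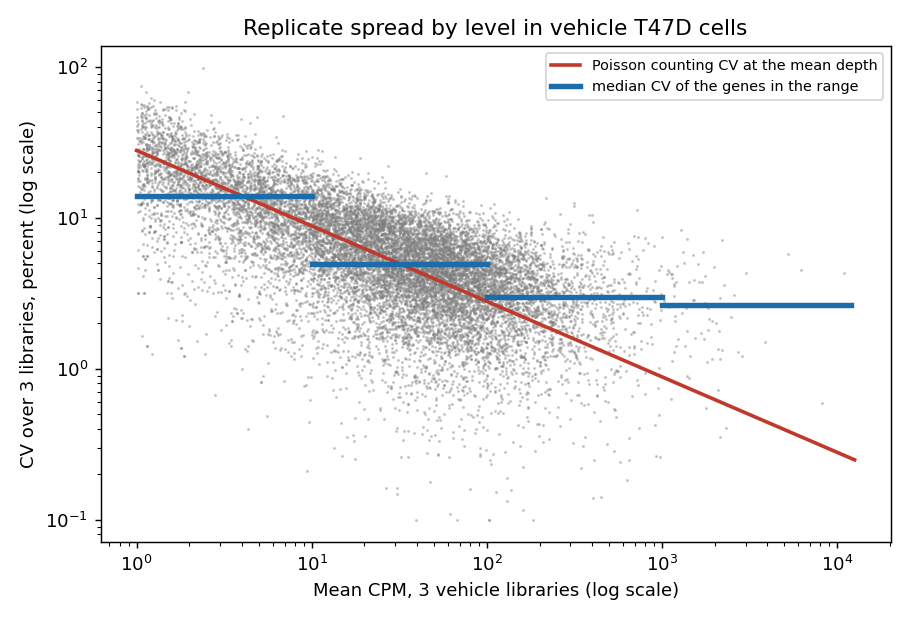
CV over the 3 vehicle libraries against mean CPM for genes of 1 CPM or more (grey points, both axes on log scales, values under 0.1% drawn at 0.1%), with the median CV of each range (blue) and the CV of Poisson counting (red). The median was 13.9% from 1 to 10 CPM and 2.63% at 1000 CPM or more, where it lies above the counting line although a median CV of 3 values lies under the true CV.

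The 10 genes with the largest CV among those of 10 CPM or more all had means under 20 CPM, close to the minimum for this list. LOC101927795, a long noncoding RNA gene, stood at 14.3, 9.66 and 8.62 CPM (CV 28.0%), with a the highest. ADAMTS7, a secreted metalloprotease, stood at 10.1, 9.13 and 15.1 CPM (CV 27.8%), and ZIC2, a zinc finger factor, at 9.39, 7.84 and 12.8 CPM (CV 25.4%), both with c the highest. GUCY1A2, a guanylate cyclase subunit, stood at 9.96, 16.8 and 13.8 CPM, with b the highest. The others were PEMT, FAM71E1, ZSWIM7, USP45, ZNF233 and MAP3K10, with CVs from 22.9% to 25.1%. The library that stood apart differed from gene to gene, and 19 of the 10535 genes (0.180%) had a CV above 20%. Library b was the lowest for ADAMTS7, ZIC2, PEMT, FAM71E1 and MAP3K10, whose GC content ran from 58.9% to 69.7%. It was the highest for GUCY1A2 and USP45, with a GC content of 36.2% and 36.9%. The part of the GC trend in these values was not tested.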

How the data were processed

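Alignment to hg19 was done by the authors (TopHat2 2.0.14, Bowtie2 2.2.6), and the deposited counts per gene were made by them with HTSeq. The HTSeq version, the annotation and the strand setting are not given in the sources used here. The sources name both polyA RNA and a total RNA library, and both single-end and paired-end reads. The table also holds 5 summary lines, which were left out of the totals of counts on genes. Of the reads in the table of a, b and c, 59.9%, 59.8% and 59.5% lay in no feature, 6.82%, 6.85% and 6.75% did not map uniquely, and 0.595%, 0.572% and 0.588% were ambiguous.

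CPM came from edgeR 4.0.16 in R 4.3.3, with TMM factors over the 3 vehicle libraries. Exon lengths and gene positions are those of GENCODE 44 on GRCh37, matched for 23614 of 25370 genes (2360 by an older symbol). The order per kb was limited to protein-coding and long noncoding genes with at least 200 exon bases, a limit added after seeing the data. Alternatives were DESeq2 1.42.0 size factors, library size alone, TMM over all 12 libraries, other floors and levels, other lengths, and each library left out. No test was run. Spread was checked against Poisson counting error.

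The gene lists and members were chosen with earlier results of these data known. With a few omissions, genes named were the 6 markers, the 20 highest by CPM and per kb, up to 5 highest members of each list (3 in an other-lineage list), up to 5 receptors or steroid enzymes of a list at or under the floor in list order, CYP19A1, ESR2, ERBB2 and EGFR, and the 10 most variable genes of at least 10 CPM. Other genes named, among them JUP, RARA, MUCL1, SCGB2A2, SCGB1D2, CSN1S1, CSN2, CSN3, LALBA, FOXA2, FOXA3, PTPRC, PECAM1, ZEB1 and NANOG, were chosen after their values were seen.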

Additional observations from a re-analysis of the deposited data

How the results depend on the processing

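The share of counts in the 10 highest genes was 5.08% with ribosomal protein genes left out, against 4.81%, because the total is then smaller. The other-lineage members at or under the floor numbered 41 with a floor of 0 counts, against 70 with 3 counts, and 70 to 74 with 1 library left out. The median CV, 4.41% over genes of 10 CPM or more, was 5.51% over genes of 1 CPM or more and 3.002% over genes of 100 CPM or more. It ran from 3.31% to 4.02% with 1 library left out, partly by construction, since an SD of 2 values has a lower median than one of 3 (a ratio of 0.810). The difference in median CpG ratio between promoters of the highest class and of genes with 0 counts was 0.628 with CPM in place of CPM per kb and 0.623 for starts within 100 bases of the canonical start, an alternative chosen after seeing the data, against 0.619.

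The count of genes with at least 1 count in each library (16884) was 14162 with at least 10 counts and 17241 to 17269 with 1 library left out. Luminal members at 1 CPM or more numbered 54 under each normalization and with each library left out. For the 196 named genes with a count, 0 of 588 levels moved by 1 SD or more under another normalization. With 1 library left out, levels of named genes of 10 CPM or more moved by a median of 1.22%, and by 15.97% at most, for ADAMTS7 without c. A mean of 3 values cannot move by 1 SD in this way, so the percent is given. No paired analysis was possible because no result comes from a test.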
